A study of Saccharomyces cerevisiae with 5 samples.

Results

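The autophagy-related (ATG) genes of Saccharomyces cerevisiae were examined in libraries made by cap analysis of gene expression (CAGE), a method that reads the 5′ end of each capped RNA and thereby counts transcripts where they begin. The members were all genes of the deposited table whose symbol is ATG followed by a number, 34 of 5009 genes, and the choice used no measured value. VPS30 (also named ATG6) and SNX4 (also named ATG24) carry other symbols in the table and were counted among the partner genes, and ATG42, ATG43 and ATG44 were not analysed here. The cultures were of the strains BY_DEH+ and BY_DEH++, which the labels describe by name alone, with no genotype or cell type beyond whole yeast cells. DEH stands for the uronate monomer that is left when alginate is broken down, and mannitol is a sugar alcohol. Alginate and mannitol are both carbohydrates of brown seaweed. The media for BY_DEH+ were DEH and glucose, and those for BY_DEH++ were DEH, glucose and mannitol, each carbon source at 1% (w/v) in 10 mL at 30 °C.

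Each of the 5 groups had 1 library, so no difference below has a replicate check. The optical density went from 0.2 to 0.63 in 3 days for BY_DEH+ in DEH and from 0.05 to 0.55 in 2 days for BY_DEH++ in DEH. It went from 0.02 to 0.79 in 1 day in mannitol, and overnight from 0.05 to 0.91 and 0.95 in glucose for BY_DEH+ and BY_DEH++. The medium, and in DEH the strain, therefore cannot be told apart from the time in culture and the density at harvest. Levels are in CPM, reads scaled to a common library total. The libraries held 9430000 to 19900000 reads, so that 10 CPM stood for 94 reads at the lowest depth (95% counting interval 8.06 to 12.2 CPM) and for 199 reads at the highest (8.66 to 11.5 CPM). Intervals given below cover counting error alone. With all listed clusters, the 5 marker genes of a cells summed to 188 to 490.2 CPM and the 4 of alpha cells to 319 to 2592 CPM. AGA2, of the a-cell list, was listed at 0 in BY_DEH++ in DEH. Much of the a-cell sum lay away from the genes' own coding starts, in part in clusters also assigned to another gene. In BY_DEH+ in DEH, MFA1 was listed at 118 CPM, MFA2 at 124 CPM and BAR1 at 25.7 CPM. The window around the coding start, defined below, held 6.63, 0.650 and 0 CPM of these. STE2 and AGA2 kept their values there. Of the alpha-cell markers SAG1 had 38.4 CPM listed and 0 in the window, while MF(ALPHA)1 kept its 241 CPM. The listed alpha-cell sum was lowest in BY_DEH+ in DEH. Of the a-cell markers 2 (STE2 and AGA2) were at least 2-fold lower in DEH than in glucose in both strains, and of the alpha-cell markers 3 (MF(ALPHA)2, STE3 and SAG1). Of all genes with a mean of at least 10 CPM, 5.32% were. In the order BY_DEH+ in DEH and glucose, then BY_DEH++ in DEH, glucose and mannitol, STE2 had 13.1, 82.4, 9.45, 106 and 5.16 CPM, and STE3 had 38.1, 131, 101, 231 and 91.3 CPM. The part of mating type in the results was not tested. The title of the mannitol library lacks the short ending of the other 4, and whether it was prepared apart was not tested.

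Autophagy carries portions of the cytoplasm to the vacuole, the yeast counterpart of the lysosome, in a vesicle with a double membrane called the autophagosome. The Atg1 kinase complex starts its formation, Atg9 vesicles, a phosphatidylinositol 3-kinase and the lipid-transfer protein Atg2 supply and mark the membrane, and a pair of ubiquitin-like systems attach Atg8 to it. Receptors that bind Atg8 or the scaffold Atg11 select cargo such as mitochondria, peroxisomes and endoplasmic reticulum. In yeast the pathway is known for its rise under nitrogen starvation, when several ATG genes are released from repression, and several of their promoters hold known sites for regulators of nutrient and stress responses.

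The upstream sequences of 5 members are shown because the results below turn on them. ATG8, ATG34, ATG36 and ATG39 stood at least 2-fold higher in BY_DEH+ in DEH than both in its glucose library and in BY_DEH++ in DEH, and ATG41 had the highest mean level of all members. Each is the 250 bases before the 5′ edge of the gene's main start cluster, read 5′ to 3′ on the gene's strand from the reference genome R64. They lie at chrII:80808-81057 (minus strand, ATG8), chrXV:165291-165540 (plus strand, ATG34), chrX:83217-83466 (minus strand, ATG36), chrXII:759037-759286 (minus strand, ATG39) and chrXVI:74809-75058 (minus strand, ATG41). Capitals mark matches, on either strand, to 4 motifs: GGCGGC (the core of URS1, bound by the repressor Ume6), TGACTC (bound by Gcn4), GATAAG (bound by GATA factors such as Gln3) and AGGGG (the stress element bound by Msn2 and Msn4).
ATG8: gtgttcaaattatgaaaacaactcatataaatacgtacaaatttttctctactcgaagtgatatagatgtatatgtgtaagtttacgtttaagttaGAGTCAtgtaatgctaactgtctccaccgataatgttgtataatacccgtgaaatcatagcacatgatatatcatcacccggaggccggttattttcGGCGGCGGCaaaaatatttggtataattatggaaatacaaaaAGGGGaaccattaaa
ATG34: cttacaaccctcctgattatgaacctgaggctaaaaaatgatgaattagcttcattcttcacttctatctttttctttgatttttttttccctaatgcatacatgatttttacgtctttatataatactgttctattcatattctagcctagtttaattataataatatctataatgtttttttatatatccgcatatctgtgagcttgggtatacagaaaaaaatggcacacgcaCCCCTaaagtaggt
ATG36: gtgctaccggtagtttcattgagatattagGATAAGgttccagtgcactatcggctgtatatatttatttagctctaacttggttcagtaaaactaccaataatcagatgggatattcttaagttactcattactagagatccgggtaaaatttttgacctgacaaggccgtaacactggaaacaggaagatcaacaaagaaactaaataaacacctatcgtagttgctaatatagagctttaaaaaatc
ATG39: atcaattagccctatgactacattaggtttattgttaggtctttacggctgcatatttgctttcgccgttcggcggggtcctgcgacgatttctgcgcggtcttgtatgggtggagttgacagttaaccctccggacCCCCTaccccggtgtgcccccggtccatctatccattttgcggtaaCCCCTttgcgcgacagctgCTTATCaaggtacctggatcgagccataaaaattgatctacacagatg
ATG41: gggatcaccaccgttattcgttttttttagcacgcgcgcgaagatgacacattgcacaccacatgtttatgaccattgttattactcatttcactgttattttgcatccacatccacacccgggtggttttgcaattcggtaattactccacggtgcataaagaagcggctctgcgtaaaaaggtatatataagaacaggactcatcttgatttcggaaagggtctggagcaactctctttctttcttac

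In ATG8 the capitals hold a pair of overlapping URS1 cores, 1 Gcn4 site and 1 stress element. ATG36 held 1 GATA site, ATG34 held 1 stress element, ATG39 held 1 GATA site and 2 stress elements, and ATG41 held none of the 4. Over all 34 members the URS1 core was found in 2 (5.88%, ATG8 and ATG19), against 5.41% of the 4876 genes with such a window. The Gcn4 site was found in 5 members (14.7% against 7.47% of genes), the GATA site in 7 (20.6% against 10.7%) and the stress element in 10 (29.4% against 19.9%). These matches describe the letters of the windows and nothing of binding.

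All 34 members had reads in all 5 libraries. A gene's level was the sum of its start clusters in CPM, and since CAGE takes a single tag from each 5′ end, levels of different genes can be set side by side without a length. The mean level over the 5 libraries ranged from 6.62 CPM for ATG14 to 1232 CPM for ATG41, and the next were ATG33 at 265 CPM and ATG5 at 194 CPM. The median member stood at 46.1 CPM, against 79.9 CPM for all genes with a mean of at least 10 CPM. That limit set which genes were counted, 4815 in all and 33 members, with ATG14 below it. Together the members held 3907 CPM in BY_DEH+ in DEH, 5161 CPM in BY_DEH+ in glucose, 2112 CPM in BY_DEH++ in DEH, 5030.0 CPM in BY_DEH++ in glucose and 1352 CPM in mannitol. Without ATG41 the sums were 3541, 2571, 1708, 2488 and 1094 CPM in the same order, so that BY_DEH+ in DEH was the highest and mannitol the lowest.

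**Figure D1:**
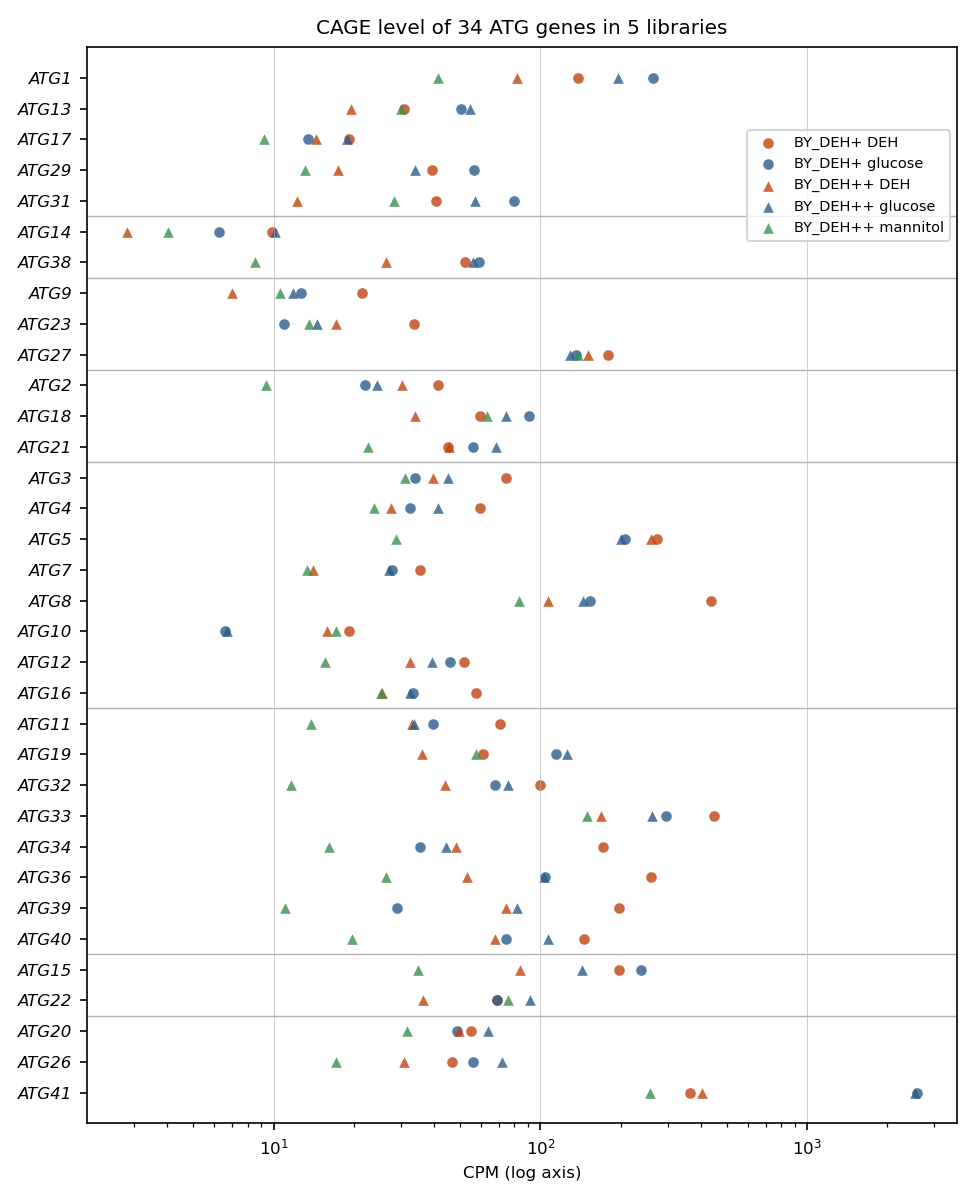
CPM (log axis) of each of the 34 ATG genes in the 5 libraries, 1 point per library, with circles for BY_DEH+ and triangles for BY_DEH++, grouped from the top as Atg1 kinase complex, phosphatidylinositol 3-kinase, Atg9 vesicles, Atg2 and Atg18, conjugation, receptors and scaffold, vacuole, and others. ATG8, ATG34, ATG36 and ATG39 are highest in BY_DEH+ in DEH (438, 172, 260.0 and 198 CPM), and ATG41 is highest in both glucose libraries.

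DEH was compared with glucose in each strain. Folds on the log2 scale are of CPM + 1, a gene was called at 2-fold, and ratios quoted as folds are of the CPM themselves with their 95% counting interval. In BY_DEH+, 7 of 33 members (ATG3, ATG8, ATG10, ATG23, ATG34, ATG36 and ATG39) stood 2-fold or more above glucose, where 10.4% of all genes were, and 1 was lower (ATG41), where 9.7% of genes were. In BY_DEH++, 1 member was higher (ATG10), against 8.7% of genes, and 9 were lower (ATG1, ATG13, ATG18, ATG19, ATG22, ATG26, ATG31, ATG38 and ATG41), against 10.4% of genes. The median log2 fold of the members was 0.39 in BY_DEH+ and -0.63 in BY_DEH++, while that of all genes was 0.12 and -0.11. With the libraries rescaled by median of ratios, ATG1 and ATG31 also passed 2-fold lower in BY_DEH+, making 3.

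Both strains gave the same call for a single member in each direction, ATG10 higher and ATG41 lower, where 5.07% of genes were higher and 5.32% lower in both. ATG10 encodes the E2-like enzyme that joins Atg12 to Atg5. Its level was 19.1 CPM in BY_DEH+ in DEH, 6.58 CPM in BY_DEH+ in glucose, 15.8 CPM in BY_DEH++ in DEH, 6.70 CPM in BY_DEH++ in glucose and 17.1 CPM in mannitol. Both glucose libraries were thus the low ones, and these levels rest on 62 to 314 reads. The ratio of DEH to glucose was 2.91 in BY_DEH+ (interval 2.18 to 3.93) and 2.35 in BY_DEH++ (1.86 to 3.01). The gene upstream on the same strand, SDH2 (a subunit of succinate dehydrogenase), was listed at 656, 125, 426, 111 and 574 CPM in the same order of libraries, low in both glucose libraries as well. In mannitol, clusters of ATG10 outside its main one, 3.73 CPM of it in a cluster between the genes that is assigned to both, left the main cluster with 63.7% of the gene's CPM. The part of SDH2 transcripts in the ATG10 values was not tested.

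ATG41, also known as ICY2, encodes a small protein that binds Atg9 and is needed for full autophagosome formation. It stood at 365 CPM in BY_DEH+ in DEH, 2591 CPM in BY_DEH+ in glucose, 404 CPM in BY_DEH++ in DEH, 2542 CPM in BY_DEH++ in glucose and 257 CPM in mannitol. The glucose libraries of the 2 strains lay far above the other 3. The level in DEH was 7.09-fold lower than in glucose in BY_DEH+ (interval 6.85 to 7.33) and 6.29-fold lower in BY_DEH++ (6.14 to 6.45). Every cluster of ATG41 is also assigned to its downstream neighbour YAH1, a mitochondrial ferredoxin, so the call is lost where clusters of several genes are left out. Within 500 bases before to 100 bases after its own coding start ATG41 had 302, 2423, 307, 2396 and 212 CPM in the same order, and the cluster at the start of YAH1 had 63.2, 168, 97.0, 144 and 42.4 CPM.

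The only fit the design allows takes the strains as the repeat of DEH against glucose, so its p-values speak of the spread between these strains and not between cultures. In limma with medium and strain as terms (1 residual degree of freedom, Benjamini-Hochberg adjustment over 4815 genes), ATG10 rose by 1.27 on the log2 scale (SE 0.27, adjusted p = 0.0485). ATG41 fell by 2.74 (SE 0.26, limma adjusted p = 0.0089). No other member passed, and the nearest were ATG31 (-1.55, SE 0.36, limma adjusted p = 0.0608), ATG19 (-1.33, SE 0.32, adjusted p = 0.0647) and ATG1 (-1.09, SE 0.27, adjusted p = 0.0676). Across all genes 4.32% were called higher and 4.26% lower, and an unadjusted p under 0.05 was reached by 8 members and by 27% of genes. The ATG10 call is lost with a pseudocount of 10 CPM and with an intensity trend in limma.

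Selective autophagy receptors held the widest span of DEH folds among the members of BY_DEH+. The 8 receptors and scaffold genes had a median log2 fold of 0.89 in BY_DEH+, with 3 higher, and of -0.64 in BY_DEH++, with 1 lower, where 10.4% of all genes were higher in BY_DEH+ and 10.4% lower in BY_DEH++. ATG39, the receptor for the perinuclear endoplasmic reticulum and part of the nucleus, was at 198 CPM in BY_DEH+ in DEH, 28.9 CPM in BY_DEH+ in glucose, 74.3 CPM in BY_DEH++ in DEH, 81.8 CPM in BY_DEH++ in glucose and 11.0 CPM in mannitol. Its ratio of DEH to glucose was 6.86 in BY_DEH+ (interval 6.05 to 7.82) and 0.908 in BY_DEH++ (0.839 to 0.983). The glucose libraries themselves differed for this gene, with BY_DEH++ 2.84-fold above BY_DEH+ (2.48 to 3.25). ATG34, a receptor that brings alpha-mannosidase to the vacuole during starvation, was at 172, 35.4, 48.4, 44.2 and 16.1 CPM in the same order. The DEH library of BY_DEH+ was the highest, with a ratio to glucose of 4.84 there (4.31 to 5.46) and of 1.09 in BY_DEH++ (0.986 to 1.21). Mannitol was the lowest, 2.75-fold below glucose in BY_DEH++ (2.32 to 3.29).

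ATG36, the receptor for peroxisomes, was at 260.0 CPM in BY_DEH+ in DEH, 104 CPM in BY_DEH+ in glucose, 53.3 CPM in BY_DEH++ in DEH, 103 CPM in BY_DEH++ in glucose and 26.5 CPM in mannitol. The glucose libraries agree within counting error, and the DEH libraries lay on opposite sides of them. The ratio of DEH to glucose was 2.49 in BY_DEH+ (interval 2.32 to 2.68), whereas BY_DEH++ was 1.94-fold lower in DEH than in glucose (1.79 to 2.10). The main start cluster of ATG32, the mitophagy receptor, was at 99.1, 63.5, 43.2, 74.9 and 11.6 CPM in the same order, and ATG33, a protein of the mitochondrial outer membrane used in mitophagy, at 446, 295, 169, 262 and 149.9 CPM. Neither reached 2-fold in DEH with all clusters summed, and in both genes the DEH library was above glucose in BY_DEH+ and below it in BY_DEH++. ATG33 includes a cluster of 38.3 to 62.6 CPM that overlaps the coding start of its neighbour RSC2 and is assigned to both, and without it the 5 libraries held 388, 237, 107, 217 and 111 CPM within the window around the ATG33 start. There, and with its highest cluster or clusters of 1 gene alone, ATG33 was at least 2-fold lower in DEH in BY_DEH++.

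ATG40, the receptor for cortical endoplasmic reticulum, was at 146 CPM in BY_DEH+ in DEH, 74.3 CPM in BY_DEH+ in glucose, 67.7 CPM in BY_DEH++ in DEH, 107 CPM in BY_DEH++ in glucose and 19.7 CPM in mannitol. ATG11, the scaffold for selective autophagy, was at 70.7, 39.5, 32.9, 33.7 and 13.8 CPM. ATG40 was under 2-fold in both strains with all clusters summed and more than 2-fold lower in DEH in BY_DEH++ with its highest cluster alone. ATG19, the receptor of the cytoplasm-to-vacuole targeting pathway, which carries aminopeptidase I, ran the other way. It stood at 60.9 CPM in BY_DEH+ in DEH and 114 CPM in glucose, and at 36.1 CPM in BY_DEH++ in DEH, 126 CPM in glucose and 57.4 CPM in mannitol. In BY_DEH++ it was 3.49-fold lower in DEH than in glucose (interval 3.19 to 3.81), and in BY_DEH+ 1.87-fold lower (1.69 to 2.06). ATG19 and ATG34 are paralogues that lie close together on chromosome XV, yet their log2 folds in BY_DEH+ were -0.89 and 2.24.

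The conjugation genes had a median log2 fold of 0.81 in BY_DEH+, with 3 of 8 higher, and of -0.30 in BY_DEH++, with 1 higher, where 10.4% and 8.7% of all genes were. ATG8, the ubiquitin-like protein that coats the autophagosome and is the usual marker of the pathway, was at 438 CPM in BY_DEH+ in DEH, 153 CPM in BY_DEH+ in glucose, 107 CPM in BY_DEH++ in DEH, 145 CPM in BY_DEH++ in glucose and 82.9 CPM in mannitol. The DEH library of BY_DEH+ was the highest by far and the glucose libraries lay close together. ATG8 was 2.85-fold higher in DEH than in glucose in BY_DEH+ (interval 2.69 to 3.03) and 1.36-fold lower in BY_DEH++ (1.28 to 1.44). ATG3, the E2-like enzyme for Atg8, was the other member of its cascade past 2-fold in BY_DEH+, with 74.5 CPM in DEH and 33.8 CPM in glucose, against 39.6 and 45.2 CPM in BY_DEH++. ATG7 (the E1-like enzyme), ATG4 (the protease that trims Atg8) and ATG16 (the partner of Atg12-Atg5) were likewise above glucose in BY_DEH+ and below it in BY_DEH++, each by less than 2-fold. Within the window around its coding start, and with its highest cluster alone, ATG7 was at least 2-fold lower in DEH in BY_DEH++, at 12.5 CPM against 27.1 CPM in glucose in the window. The ATG16 values include a cluster of 16.8 to 34.5 CPM on the opposite strand, beside the start of CVM1.

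ATG5 was nearly level between the strains. Its product, joined to Atg12, helps transfer Atg8 to lipid, and its level was 274 CPM in BY_DEH+ in DEH, 208 CPM in BY_DEH+ in glucose, 260.3 CPM in BY_DEH++ in DEH, 199.8 CPM in BY_DEH++ in glucose and 28.7 CPM in mannitol. Both strains gave nearly the same ratio of DEH to glucose, 1.32 in BY_DEH+ (interval 1.24 to 1.39) and 1.30 in BY_DEH++ (1.24 to 1.37), and mannitol was the one low library. ATG12 had log2 folds in DEH of 0.17 in BY_DEH+ and -0.26 in BY_DEH++.

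The Atg1 kinase complex was on the low side of DEH, with median log2 folds of -0.68 in BY_DEH+ and -1.24 in BY_DEH++. The medians of all genes were 0.12 and -0.11. In BY_DEH++ 3 of its 5 genes were called lower, against 10.4% of all genes, and in BY_DEH+ 0 were, against 9.7%. ATG1, the kinase that starts the pathway, was at 138 CPM in BY_DEH+ in DEH, 265 CPM in BY_DEH+ in glucose, 82.1 CPM in BY_DEH++ in DEH, 195 CPM in BY_DEH++ in glucose and 41.3 CPM in mannitol. The glucose libraries were the highest and mannitol the lowest. It was 1.92-fold lower in DEH than in glucose in BY_DEH+ (interval 1.80 to 2.05) and 2.37-fold lower in BY_DEH++ (2.23 to 2.53). Of its partners, ATG31 and ATG13 had log2 folds of -0.95 and -0.68 in BY_DEH+ and of -2.14 and -1.44 in BY_DEH++, and ATG29 of -0.51 and -0.93. ATG17, the scaffold of the complex under starvation, was the exception, at 0.48 in BY_DEH+ and -0.36 in BY_DEH++.

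Of the membrane supply genes, ATG23, which helps move Atg9, was at 33.5 CPM in BY_DEH+ in DEH and 10.9 CPM in glucose, and at 17.1 and 14.5 CPM in BY_DEH++. ATG9, the lipid scramblase of the vesicles, had log2 folds of 0.71 in BY_DEH+ and -0.68 in BY_DEH++, and ATG27, a membrane protein that travels with it, of 0.39 and 0.22. The level of ATG27 was steady, at 179, 136, 151, 129 and 138 CPM in BY_DEH+ in DEH and glucose and in BY_DEH++ in DEH, glucose and mannitol. The lipid-transfer gene ATG2 had 0.88 and 0.29, while the phosphoinositide-binding genes ATG18 and ATG21 were below glucose in both strains, at -0.61 and -0.31 in BY_DEH+ and -1.11 and -0.58 in BY_DEH++. ATG38, a subunit of the phosphatidylinositol 3-kinase complex, was at 52.3 CPM in BY_DEH+ in DEH and 58.7 CPM in glucose, and at 26.4 CPM in BY_DEH++ in DEH, 55.7 CPM in glucose and 8.51 CPM in mannitol, with log2 folds in DEH of -0.16 and -1.05. Its fellow subunit ATG14 was too low to be counted, with 2.82 to 10.1 CPM, and had 0.59 and -1.54. In the vacuole, ATG15 (a lipase that breaks down autophagic bodies) had -0.27 and -0.75, and ATG22 (an exporter of amino acids) was level in BY_DEH+ at 68.6 and 68.7 CPM but 2.50-fold lower in DEH in BY_DEH++ (interval 2.28 to 2.75). ATG26, a sterol glucosyltransferase, had -0.26 and -1.21, and ATG20, a sorting nexin, 0.18 and -0.35.

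**Figure D2:**
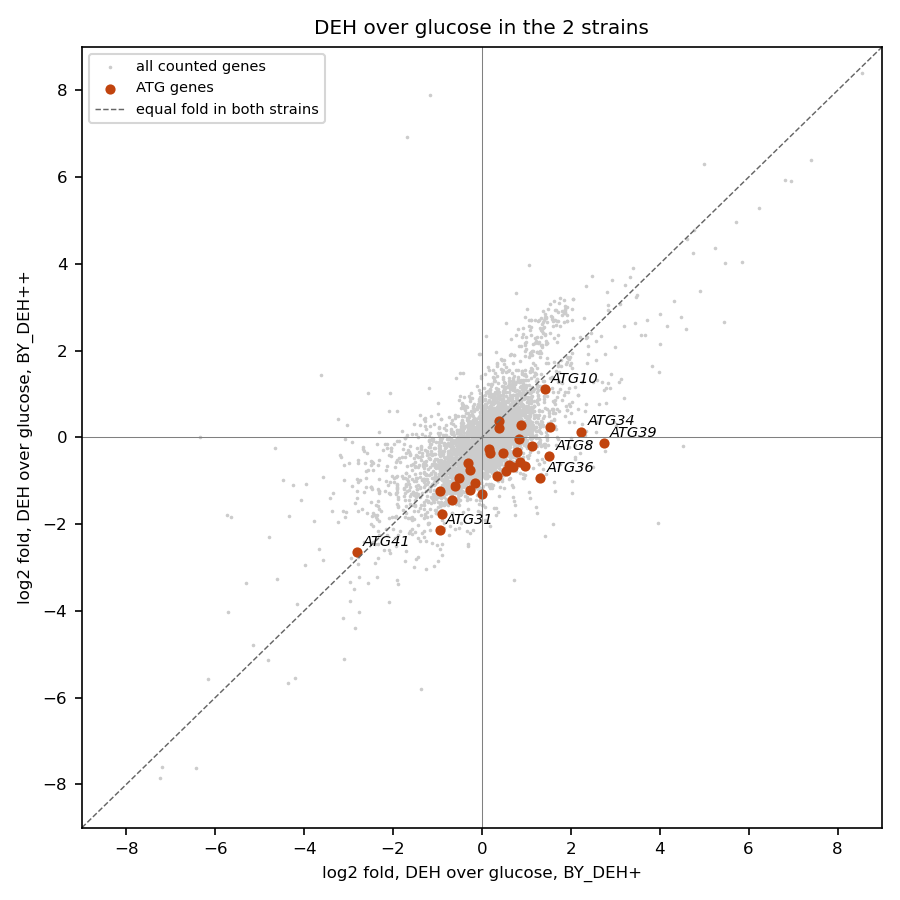
Log2 fold of DEH over glucose in BY_DEH+ (horizontal axis) and in BY_DEH++ (vertical axis) for the 4815 counted genes (grey) and the 33 counted ATG genes (red), 1 point per gene, with a dashed line of equal folds. All ATG genes but ATG41 lie below the line, and 15 of them are right of 0 and under 0.

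The difference in DEH response between the strains was shared by nearly all members. The log2 fold of DEH over glucose was lower in BY_DEH++ than in BY_DEH+ for 32 of 33 counted members (97%), against 62.7% of all genes. The median of this difference was -0.88 over the members and -0.18 over all genes, and it ran from -2.87 for ATG39 to 0.17 for ATG41. In 15 members (45.5%, against 21.1% of genes) DEH was above glucose in BY_DEH+ and below it in BY_DEH++, and the reverse was seen in 0 members and in 6.9% of genes. A further 6 members were above glucose in both strains (18.2% against 35.6% of genes) and 12 below it in both (36.4% against 36.3%). The comparison rests on 4 libraries, and the difference could not be tested.

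Set against each other in the same medium, the strains differed in DEH and little in glucose. In DEH, 15 of 33 members were at least 2-fold lower in BY_DEH++ than in BY_DEH+ (ATG4, ATG7, ATG8, ATG9, ATG11, ATG15, ATG16, ATG29, ATG31, ATG32, ATG33, ATG34, ATG36, ATG39 and ATG40), where 8.1% of all genes were, and 0 were higher, where 5.21% of genes were. In glucose 1 member was higher in BY_DEH++ (ATG39), where 0.561% of genes were, and 0 were lower, where 0.81% of genes were. The median log2 fold of the members was -0.93 in DEH and -0.02 in glucose, and that of all genes -0.22 and -0.05. Rescaling by median of ratios took the median of all genes in DEH to 0.00 and left 8 members lower (ATG7, ATG8, ATG9, ATG31, ATG33, ATG34, ATG36 and ATG39), against 4.74% of genes, with 0 members higher against 8.57% of genes. These are the same DEH libraries as in the folds over glucose, so the counts are not independent of them.

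Among the role groups the receptors and scaffold had the lowest median in this comparison. Of the 8 genes 7 were at least 2-fold lower in BY_DEH++ in DEH, where 8.1% of all genes were. Their median log2 fold as a group of 8 was -1.28, and ATG19 was at -0.74. ATG36 was 4.88-fold lower (interval 4.54 to 5.24), ATG8 4.09-fold lower (3.88 to 4.31), ATG34 3.55-fold lower (3.28 to 3.84) and ATG39 2.66-fold lower (2.49 to 2.85). In glucose the same ratios of BY_DEH++ to BY_DEH+ were 0.989 for ATG36 (0.910 to 1.07), 0.946 for ATG8 (0.883 to 1.01) and 1.25 for ATG34 (1.09 to 1.43). The members with the smallest strain difference in DEH were ATG21 (log2 fold 0.01), ATG5 (-0.07), ATG41 (0.14) and ATG20 (-0.15). In these bulk cultures fewer cells with a transcript and less of it per cell cannot be told apart.

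**Figure D3:**
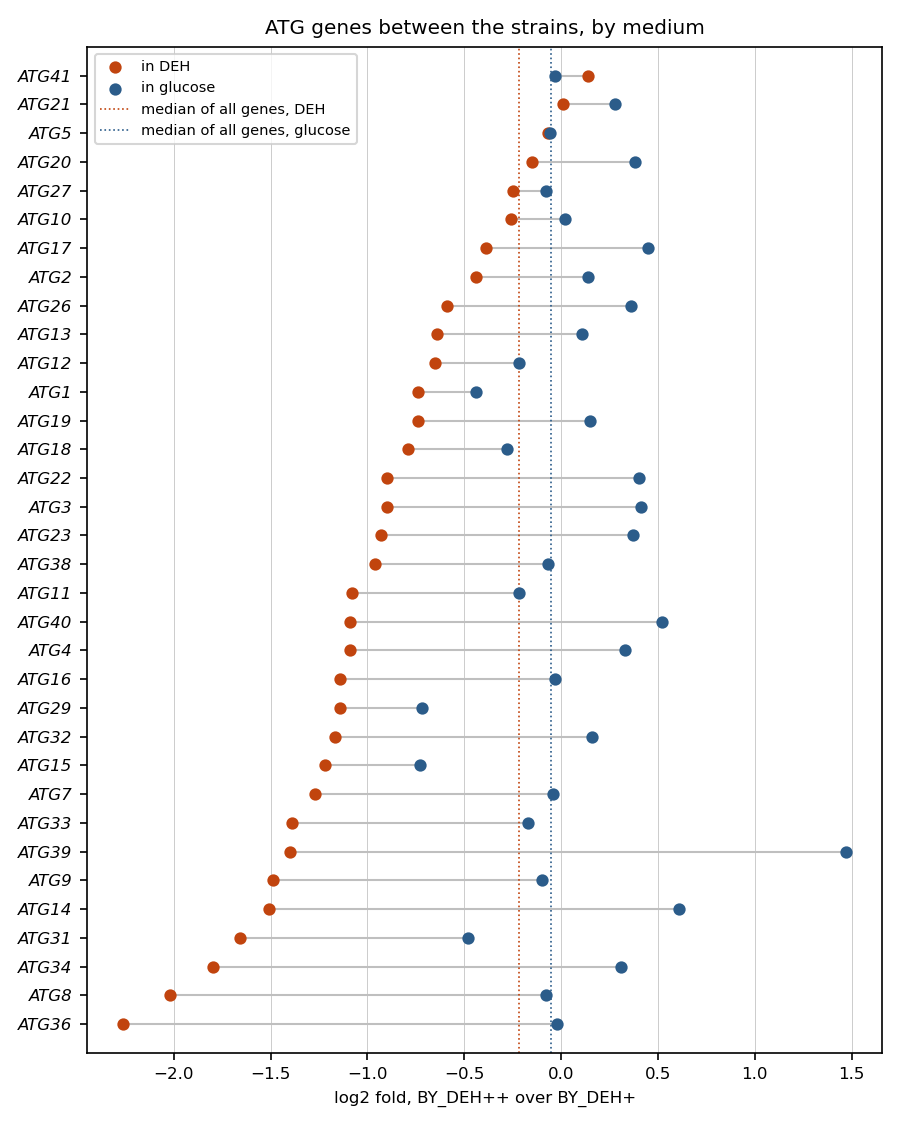
Log2 fold of BY_DEH++ over BY_DEH+ for each of the 34 ATG genes in DEH (red) and in glucose (blue), joined by a grey line and sorted by the value in DEH, with dotted lines at the medians of all counted genes (-0.22 in DEH and -0.05 in glucose). The DEH points reach down to -2.26 for ATG36, and the glucose points spread around 0 with ATG39 apart at 1.47.

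Mannitol was compared with glucose in BY_DEH++. In mannitol 17 of 33 members were at least 2-fold lower (ATG1, ATG2, ATG5, ATG11, ATG12, ATG15, ATG19, ATG21, ATG26, ATG29, ATG32, ATG34, ATG36, ATG38, ATG39, ATG40 and ATG41), and so were 26.7% of all genes. A single member, ATG10, was higher, against 9.89% of genes. The median log2 fold was -1.12 for the members and -0.46 for all genes. Median-of-ratios scaling moved the median of all genes to -0.04 and that of the members to -0.70, and then 11 members were lower against 14.4% of genes and 1 higher against 15.8%.

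The members lowest in mannitol came from several steps of the pathway. ATG41 was 9.88-fold lower than in glucose (interval 9.50 to 10.3), ATG39 7.44-fold lower (6.14 to 9.10) and ATG5 6.97-fold lower (6.18 to 7.88), from 199.8 to 28.7 CPM. ATG32 was 6.55-fold lower (5.42 to 7.97), and ATG38 was 6.54-fold lower (5.25 to 8.25). ATG40 was 5.45-fold lower (4.70 to 6.34), ATG1 4.72-fold lower (4.26 to 5.24), ATG26 4.19-fold lower (3.57 to 4.94), ATG15 4.09-fold lower (3.65 to 4.58) and ATG36 3.90-fold lower (3.42 to 4.45). All of these stayed at least 2-fold lower under median-of-ratios scaling. The 8 receptors and scaffold genes had a median log2 fold of -1.66, with 7 called lower, where 26.7% of all genes were, and ATG33 was at -0.80. Of the 7, ATG32, ATG36, ATG39 and ATG40 stayed called under median-of-ratios scaling, against 14.4% of genes, and ATG11, ATG19 and ATG34 did not. At the other end, ATG10 was 2.55-fold higher (1.97 to 3.33), and ATG27 had a ratio of 1.07 (0.993 to 1.14), the only other member above 0 on the log2 scale. The 3 genes of the Atg9 vesicles and their sorting ranged only from -0.14 to 0.09 on the log2 scale.

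**Figure D4:**
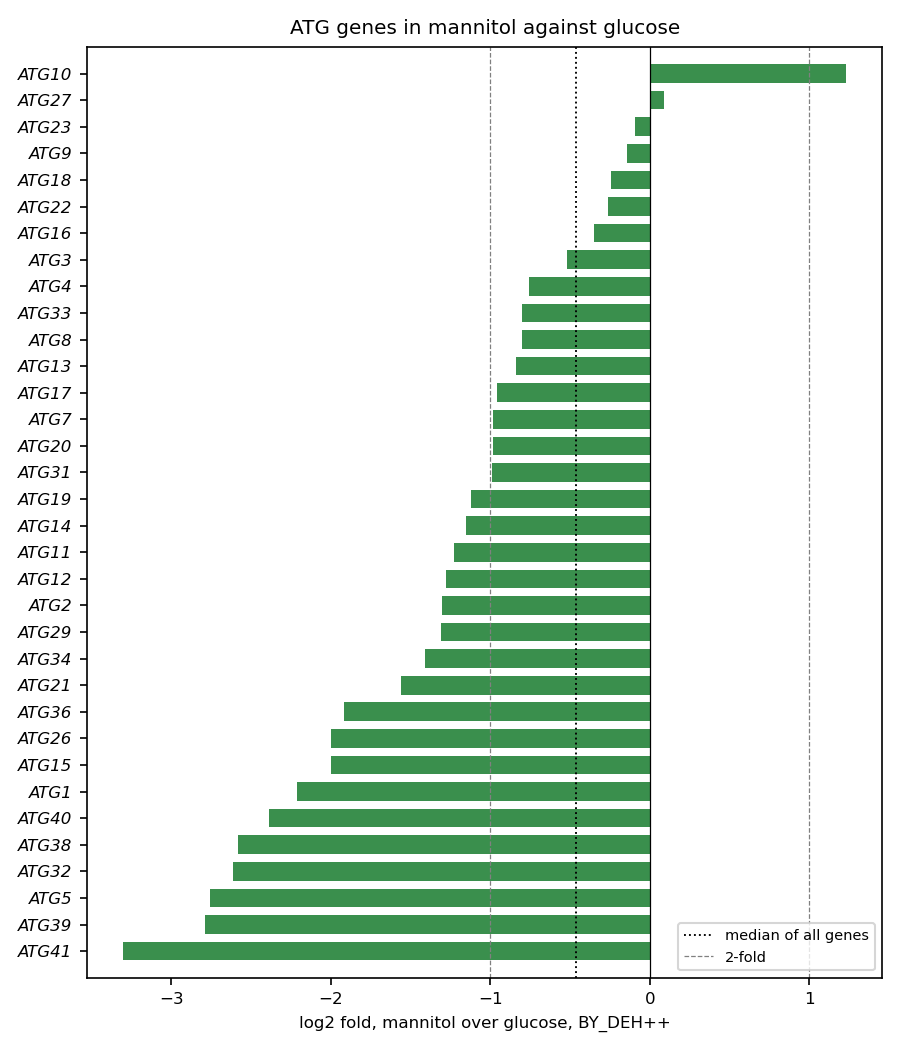
Log2 fold of mannitol over glucose in BY_DEH++ for each of the 34 ATG genes, sorted, with dashed lines at 2-fold and a dotted line at the median of all counted genes (-0.46). ATG41, ATG39, ATG5, ATG32 and ATG38 are the lowest (-3.30 to -2.58), and ATG10 is the one gene past 2-fold higher (1.23).

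Set directly against mannitol in BY_DEH++, DEH gave 10 members at least 2-fold higher (ATG2, ATG5, ATG11, ATG12, ATG15, ATG32, ATG34, ATG38, ATG39 and ATG40), against 20.6% of genes, and 2 lower (ATG22 and ATG31), against 8.91% of genes. The median log2 fold was 0.60 for the members and 0.32 for all genes. Under median-of-ratios scaling 7 members were higher against 11.7% of genes and 3 lower against 14.3%. The largest ratios were 9.08 for ATG5 (interval 8.08 to 10.2) and 6.76 for ATG39 (5.59 to 8.25). This comparison shares its libraries with those above, so the values are given side by side only.

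CAGE also shows where transcription of a gene starts. The 34 members had 99 start clusters in the table, and 29 members had a single cluster that reached 10 CPM in some library. The other 5 were ATG16, ATG31, ATG33, ATG40 and ATG41. In ATG33 and ATG41 the smaller of these clusters lies by a neighbouring gene, and in ATG16 the larger does, as given above. ATG40 and ATG31 each had a near and a far cluster upstream on their own strand, both assigned to that gene alone.

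In ATG40 the near cluster (chromosome XV, 618392 to 618485, minus strand) ends 103 bases before the coding start, and the far one (618822 to 619134) ends 533 bases before it. The near cluster held 86.3 CPM in BY_DEH+ in DEH, 57.3 CPM in BY_DEH+ in glucose, 19.6 CPM in BY_DEH++ in DEH, 91.6 CPM in BY_DEH++ in glucose and 16.1 CPM in mannitol. The far cluster held 57.7, 16.3, 47.6, 15.7 and 2.96 CPM in the same order, so that it was high in DEH and low in glucose in both strains, while the near cluster was not. The near cluster's share of ATG40 CPM was 77.1% (95% exact binomial interval 73.8 to 80.2%) in BY_DEH+ in glucose and 59.3% (56.8 to 61.8%) in DEH. In BY_DEH++ it was 85.4% (83.5 to 87.2%) in glucose, 29.0% (26.6 to 31.5%) in DEH and 81.6% (75.6 to 86.6%) in mannitol. In the reference genome the stretch from the far cluster to the coding start holds 7 ATG triplets, and that from the near cluster holds 0.

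In ATG31 the near cluster (chromosome IV, 488593 to 488724, minus strand) overlaps the coding start, and the far one (489196 to 489263) ends 533 bases before it, with 5 ATG triplets between. The near cluster held 31.4, 73.7, 8.50, 53.0 and 8.79 CPM in BY_DEH+ in DEH and glucose and in BY_DEH++ in DEH, glucose and mannitol. The far cluster held 9.34, 6.05, 3.67, 4.14 and 19.5 CPM in that order, highest in mannitol. The near cluster held 92.4% (interval 90.3 to 94.2%) and 92.7% (90.7 to 94.5%) of ATG31 CPM in glucose in BY_DEH+ and BY_DEH++, and 77.1% (72.8 to 80.9%) and 69.8% (63.6 to 75.5%) in DEH. In mannitol its share was 31.1% (25.9 to 36.7%), so the fold of ATG31 in mannitol, -0.99 on the log2 scale, combines a lower near cluster with a higher far one. The far-cluster values of ATG31 rest on as few as 55 reads, in BY_DEH++ in glucose.

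**Figure D5:**
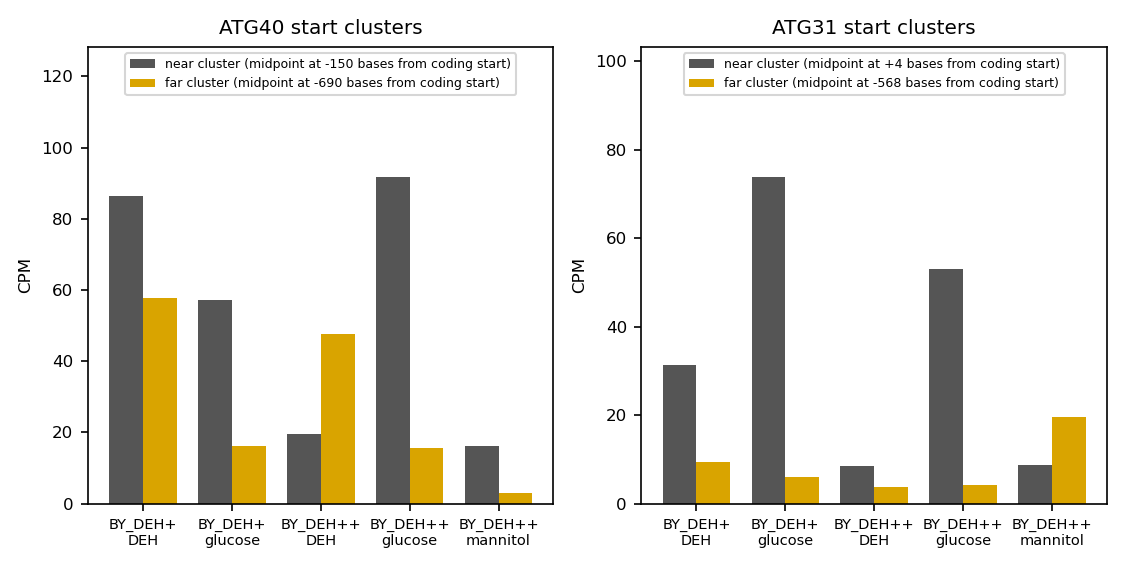
CPM of the near (grey) and far (yellow) start clusters of ATG40 (left) and ATG31 (right) in the 5 libraries, 1 bar per library, with the cluster midpoints given as distance from the coding start. The far ATG40 cluster stands at 57.7 and 47.6 CPM in DEH and at 16.3 and 15.7 CPM in glucose, and the far ATG31 cluster is highest in mannitol at 19.5 CPM.

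Other genes of the pathway were counted in lists written from general knowledge. Over all genes 5.32% were at least 2-fold lower in DEH in both strains and 5.07% higher. Of 15 partner genes, which take part in lipid kinase activity, tethering and fusion, 1 was lower in DEH in both strains and 0 were higher. It was VPS15, the regulatory kinase of the phosphatidylinositol 3-kinase, at 73.6, 174, 67.6, 173 and 83.5 CPM in BY_DEH+ in DEH and glucose and in BY_DEH++ in DEH, glucose and mannitol. Both of its clusters are also assigned to another gene, and within the window around its own coding start VPS15 held 35.6, 43.1, 19.0, 27.4 and 26.9 CPM, under 2-fold in both strains. Among the partners VPS30 had log2 folds in DEH of 0.61 in BY_DEH+ and -0.38 in BY_DEH++, and SNX4 of 0.71 and -0.01. Of 8 vacuolar hydrolases with values, set against the same shares of all genes, 1 was lower in both strains and 0 higher. It was APE1, the aminopeptidase I carried by Atg19, at 139, 541, 106, 381 and 76.4 CPM in the same order. The summed levels of VPS15 and APE1 were highest in both glucose libraries.

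Of 11 regulators of ATG transcription 1 was higher in DEH in both strains, against 5.07% of all genes. It was UME6, which encodes the repressor known to act on ATG8. Its level was 50.8 CPM in BY_DEH+ in DEH, 13.1 CPM in BY_DEH+ in glucose, 43.0 CPM in BY_DEH++ in DEH, 12.7 CPM in BY_DEH++ in glucose and 13.5 CPM in mannitol, so that both DEH libraries were the high ones. ATG8, whose window holds the URS1 cores shown above, was high in the DEH library of BY_DEH+ alone. Any part of UME6 in the ATG8 levels was not tested. MSN4, one of the stress activators, was the 1 regulator lower in both strains, against 5.32% of all genes. MSN4 was at 35.2, 152, 23.1, 144 and 43.6 CPM in the same order. RPH1, a repressor of ATG7 and other ATG genes, was the 1 of the 11 regulators past 2-fold between the strains in DEH. It had 99.8 CPM in BY_DEH+ and 38.1 CPM in BY_DEH++. Of all genes 8.1% were lower in BY_DEH++ in that comparison and 5.21% higher. Of 15 genes of the nutrient kinases that govern Atg1, 0 passed 2-fold in the same direction in both strains, where 5.07% of all genes were higher and 5.32% lower in both. TPK2 and BCY1, of protein kinase A, were the 2 of these 15 called higher in DEH in BY_DEH+, where 10.4% of all genes were.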

How the data were processed

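The values were deposited by the authors as signal per consensus start cluster, tags scaled to CPM of each library, as the deposited file names them. The design assumed CPM, and the unit was recorded as signal because clusters assigned to several genes are repeated. Per the labels' protocols, cap trapping with a DNAFORM kit was followed by NextSeq500 sequencing. BWA, HISAT2 and the build mm9 appear in the submitters' processing notes with no role or version. Sequence names in the file match yeast R64, which was used for coordinates, after a shift of 1 base that put 65.7% of 204 clusters of 1 base on a pyrimidine-purine step, against 7.84% without it. The cluster caller, the filters and the rule for assigning genes are not given in the sources used here.

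A gene's CPM was the sum over its table rows, among 29960 rows and 27176 distinct clusters. The 6821 rows with no gene were left out. Depth came from the step between low values (0.0503 to 0.106 CPM per read). Values under 5 to 10 reads are listed at 0. Intervals of ratios and shares are exact binomial at 95% on those reads, and no molecular identifiers are stated. The 5 libraries formed 5 groups, with 1 library each. Fits used limma 3.58.1 in R 4.3.3, tested on simulated data, and Python 3.11.15. The members follow a rule on gene symbols alone, and the other lists follow general knowledge. All of these, with the roles and motifs, were set with earlier results of these data known, so they give no independent support. Named with all values were ATG1, ATG8, the receptors, the 3 highest members, members past 2-fold the same way in both strains, and the 5 largest folds each way in mannitol. Genes of the other pathway lists were named when past 2-fold the same way in both strains. VPS30, SNX4, SDH2, RPH1, TPK2 and BCY1 were named after their values were seen. Alternatives were other pseudocounts, scalings, filters, fold limits and cluster assignments.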

Additional observations from a re-analysis of the deposited data

Results flagged for a closer look

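For 14 members the level in DEH was above glucose in BY_DEH+ and below it in BY_DEH++, with both 95% counting intervals clear of 1. Of the 33 members counted, 13 met this (39.4%), as did 10.4% of all counted genes. The difference between the strains was not tested, since each strain and medium had 1 library. The log2 fold of DEH over glucose in BY_DEH++ minus that in BY_DEH+ was, among the receptors, -2.87 for ATG39, -2.25 for ATG36, -1.62 for ATG40, -1.33 for ATG32 and -1.23 for ATG33. Among the conjugation genes it was -1.94 for ATG8, -1.42 for ATG4, -1.30 for ATG3, -1.23 for ATG7 and -1.11 for ATG16. It was -2.12 for ATG14, a gene under the level needed to be counted, -1.40 for ATG9, -0.84 for ATG17 and -0.53 for ATG20, whose interval in BY_DEH+ lay only just above 1.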

How the results depend on the processing

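Counts of called members could rise or fall under the alternatives run but had no direction to change. Of the median log2 folds of the members, only that between the strains in glucose crossed 0. The median log2 fold of the members between the strains in glucose lay around 0, at -0.02 as reported, 0.02 with median-of-ratios scaling, upper-quartile scaling or the highest cluster alone, and 0.01 in the window around the coding start. At a 4-fold limit the counts were, for DEH over glucose, 2 higher in BY_DEH+, 0 higher and 2 lower in BY_DEH++ and 0 higher in both strains. They were 0 higher and 9 lower for mannitol over glucose, 2 higher and 0 lower for DEH over mannitol, 2 lower for BY_DEH++ over BY_DEH+ in DEH and 0 higher in glucose. The shares of all genes at 4-fold were not counted, nor were those in both strains under any alternative. Those counts therefore stand without a background. Median-of-ratios scaling gave 3 lower in DEH in BY_DEH+ (11% of all genes) and 3 in both strains. It gave 11 lower in mannitol (14.4% of genes) with a median log2 fold of -0.70, and 8 lower between the strains in DEH (4.74%). Upper-quartile scaling gave 3 lower in DEH in BY_DEH+ (10.9% of genes) and 3 in both strains. With the highest cluster of each gene alone, 2 were lower in BY_DEH+ (10.5% of genes) and 2 in both strains. There 0 were higher in mannitol (10.8% of genes) and 0 lower in DEH over mannitol (9.26%). With clusters of 1 gene alone, which drops ATG41, 0 were lower in BY_DEH+ (9.77% of genes) and 0 in both strains. In mannitol 0 were higher (8.89% of genes). Clusters in the window around the coding start gave 2 lower in BY_DEH+ (10% of genes) and 2 in both strains (ATG31 joined ATG41). They gave 0 lower in DEH over mannitol (8.97% of genes). A pseudocount of 10 CPM gave 0 higher in DEH in BY_DEH++ (7.68% of genes), in both strains, in mannitol (8.54%) and in limma (242 of 4815 genes). It gave 0 lower in DEH over mannitol (7.12% of genes) and 9 lower between the strains in DEH (5.59%). An intensity trend in limma gave 0 higher and 3 lower, where 221 and 236 of 4815 genes were. With it 8 members and 28.1% of genes had an unadjusted limma p under 0.05.

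The number of members with a lower DEH fold in BY_DEH++ than in BY_DEH+ was 30 of 33 under median-of-ratios scaling and 31 under upper-quartile scaling. It was 33 of 34 with no filter and 32 with other pseudocounts and cluster assignments. These alternatives were chosen after seeing the data. The share of all genes was not counted under them, so these numbers stand without a background. Except where a value above shows it, the cause of a change was not tested. No paired analysis was possible because no group had a second replicate, so strain entered limma as a term, and no replicate could be left out. Folds of members that fell under 10 CPM in some library rest on fewer reads, 42 to 134 for ATG14, 111 to 230 for ATG9 and 62 to 314 for ATG10. Of these only ATG14 had a mean under 10 CPM.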
